A study of Danio rerio with 39 samples.

Results

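The zebrafish genes whose symbol is znf followed by a number of 900 or more code for zinc finger proteins, most of them known only by their number. The symbol alone does not show that a gene is found only in fish. This rule was applied to the symbols of all 32057 counted genes, with case ignored, and found 203 members, numbered 970 to 1187, no symbol being carried by more than 1 gene. The members were chosen by symbol alone. The family itself was selected on readouts, because the higher level of znf1090 at 0.5 mGy/h and the spread between controls were known from earlier results. The values at 0.5 mGy/h and the control spread are therefore a description. Counts of members past a threshold in that contrast are printed beside the share of all genes and support nothing.

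Zinc finger proteins of the C2H2 type bind DNA through a row of small domains, each folded around a zinc ion, and most act as transcription factors or as repressors of chromatin. Fish genomes hold large, recently expanded sets of such genes, many of them in tandem arrays of near copies. Zebrafish members of these arrays are known to be transcribed as the embryonic genome is switched on, before and during gastrulation, and proteins of the fish-specific FiNZ set repress young transposable elements. Which of the 203 genes carry a FiNZ domain was not analysed here.

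The study exposed AB zebrafish embryos to gamma rays from a caesium source from shortly after fertilisation to the shield stage, when gastrulation has begun, and sequenced poly(A) RNA of pools of entire embryos. There were 3 pools at 0.005 mGy/h (irradiation batch I14), 4 at 0.05 mGy/h (I13), 6 at 0.5 mGy/h (I32) and 6 at 5 mGy/h (I30), and every dose rate had its own unexposed control pools: 4 in I14, 4 in I13, 6 in I32 and 6 in I30. Each dose rate was thus compared within its irradiation batch, and a difference between dose rates cannot be told apart from a difference between batches. By the study's methods the eggs of all spawnings were mixed before the pools were formed. The p-values thus measure the spread between pools of mixed eggs, which may be technical. All embryos share the AB background, and entire embryos were pooled, so no value belongs to a cell type.

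The 39 libraries held 9845688 to 57169053 reads assigned to genes on the sense strand. In batch I30 the exposed libraries held at least 20896629 reads, and 5 of the 6 controls held fewer than that. In 1 library, 0.05 mGy/h replicate 3, 35.7% of reads mapped to several places, whereas the other libraries had 14.8% to 18.1%. Levels are given in CPM (counts-per-million of assigned reads, with library sizes scaled by TMM normalization). All 17 marker genes for the tissues of a shield stage embryo had reads. Their medians ran from 1.52 CPM for mxtx2, a gene of the yolk syncytial layer, to 3244 CPM for pou5f3, a pluripotency factor of the blastoderm. GSC, a gene of the organizer, had a median of 2.17 CPM and a lowest value of 0 CPM. Of 5 markers of tissues that form later, the globin gene hbae1.1, NEUROD1 and fabp10a had a median of 0 CPM, and myhz2 had the highest median, 1.09 CPM. The label of the stage was therefore not contradicted by these markers. Their levels were not alike in all batches. The summed CPM of the 17 shield stage markers averaged 17398 in I14 controls, against 11296 in I13, 9584 in I32 and 7529 in I30 controls. Whether the batches were of the same exact stage was not tested.

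The members took a small share of each library, between 0.0109% and 0.136% of the assigned reads. All 203 had a read in at least 1 library and 130 had a read in every library. The median member averaged 1.22 CPM over the 39 libraries, 118 averaged at least 1 CPM and 14 at least 10 CPM. The family was led by a few genes. In the 20 control libraries znf1063 averaged 66.8 CPM, znf1035 62.7 CPM, znf1065 44.3 CPM, znf1007 32.05 CPM and znf1053 15.99 CPM, and these 5 genes made up 33.8% of the summed CPM of the family. CPM is not scaled to transcript length, so this order is an order of reads, not of molecules. Reads that fit several copies equally well were left out by the counting of unique reads, so members with near-identical copies are undercounted and their separate values are uncertain. Reads on the opposite strand were rare, at most 0.475% of the reads on members in any library. They were most of the reads of znf1149 (95.6%) and znf1047 (92.9%), named after their values were seen, which averaged 0.00544 and 0.00108 CPM on the sense strand and add next to nothing to the family's sum. The next highest share was 5.13% in znf1112.

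The summed CPM of the family differed widely between the irradiation batches, and also between the control pools within a batch. In batch I14 it was 251, 168 and 227 CPM in the 3 pools at 0.005 mGy/h, against 299, 248, 184 and 160 CPM in the 4 controls. In batch I13 it was 1283, 889.5, 935 and 718 CPM at 0.05 mGy/h, against 937, 1246, 509 and 786 CPM in controls. In both batches the exposed and control pools overlapped. At 0.5 mGy/h (I32) the sum had a lowest value of 833, a median of 1010.4 and a highest value of 1199 CPM, against 441, 704 and 778 CPM in controls, so that all 6 exposed pools lay above all 6 controls. At 5 mGy/h (I30) the lowest, median and highest sums were 509, 665 and 782 CPM, against 495, 799 and 1119 CPM in controls, and the groups overlapped. In bulk samples such as these, fewer cells of a type and less RNA per cell cannot be told apart.

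**Figure D1:**
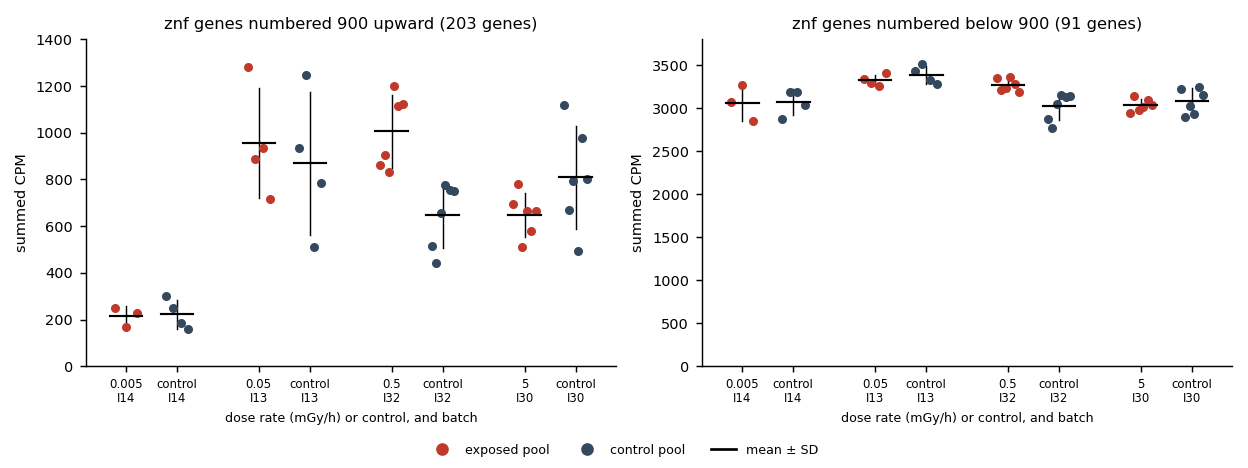
Summed CPM (y axis) of the 203 znf genes numbered 900 upward (left) and of the 91 znf genes numbered below 900 (right) in each of the 39 pools, by irradiation batch, with exposed pools in red and controls in dark blue; lines give the mean and SD. The left panel shows batch I14 below 300 CPM and the 6 pools at 0.5 mGy/h between 833 and 1199 CPM, above their controls, while the right panel stays between 2765 and 3516 CPM.

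The 91 znf genes numbered below 900, which include genes shared with other vertebrates, were read beside the family. Their summed CPM was 2765 to 3516 over all 39 libraries, whereas the sum of the family ran from 160 to 1283 CPM. In group means, the genes below 900 had 3065 ± 211 CPM at 0.005 mGy/h (SD, n = 3) and 3071 ± 151 CPM in its controls (SD, n = 4), while the family had 215 ± 42.7 and 223 ± 62.9 CPM in the same pools. No test was run of this difference between both sets of genes.

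The family was low in batch I14 in unexposed embryos too. On the log2 scale the median member was 2.03 lower in the I14 controls than in the mean of the other batches (a difference of -2.03), against a median of -0.18 for all genes tested. Of the 203 members, 191 had their lowest batch mean in I14. In 87 members all 4 controls of I14 lay below all 16 others, a pattern found in 15.5% of all genes tested, and 0 members lay above, against 10.8% of all genes. Of 186 members that passed the filter on low counts, 143 differed between the control batches (edgeR quasi-likelihood F test, adjusted p-value below 0.01), but so did 66.1% of all 16249 genes tested. A member could pass this filter through the batches where it was high, as only 92 passed in the fit of batch I14. This count therefore supports nothing. With no filter 146 members differed (72.3% of those tested), against 40.9% of all genes.

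The 3 members with the smallest p-value between control batches had the same shape. znf1053 had 1.91, 2.69, 0.940 and 1.004 CPM in the I14 controls, where the other batches averaged 27.9 CPM (I13), 12.5 CPM (I32) and 21.1 CPM (I30), with an adjusted p-value of 4.3e-09. znf1062 averaged 2.25 CPM in I14 controls, against 12.2 CPM in I13, 7.85 CPM in I32 and 12.7 CPM in I30 (adjusted p-value 3.3e-08). znf1144 averaged 1.44 CPM in I14 controls and 8.02, 8.86 and 9.05 CPM in I13, I32 and I30 (adjusted p-value 9.0e-08). In each of these 3 genes all I14 controls lay below all others.

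Not every member followed. znf1109 averaged 20.4 CPM in the I14 controls, against 17.7 CPM in I13, 14.2 CPM in I32 and 11.8 CPM in I30, so that its highest batch was I14. znf1010 averaged 11.6 CPM in I14 and 9.86, 9.77 and 9.14 CPM in I13, I32 and I30. In all, 12 of 203 members, znf1010 among them, differed by less than 0.5 on the log2 scale between the I14 controls and the mean of the others. Of these 12, znf1008, znf1009 and znf1129, named after their values were seen, also averaged over 1 CPM.

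**Figure D2:**
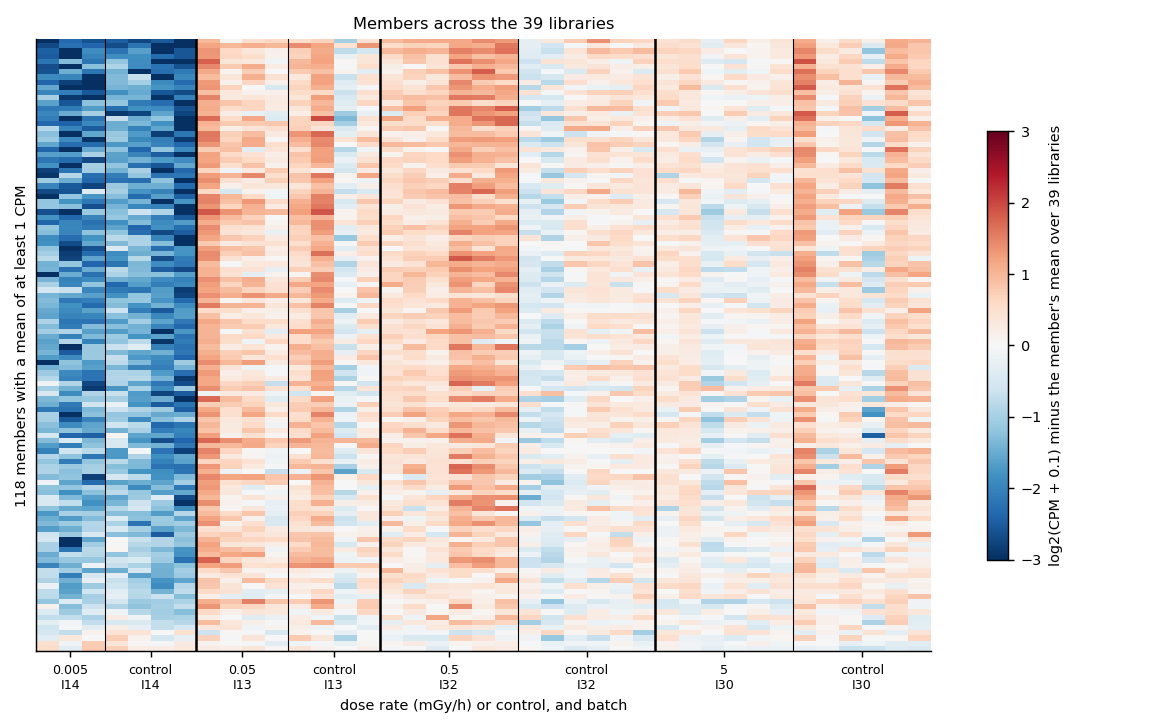
Levels of the 118 members that averaged at least 1 CPM (rows, ordered by the difference between batch I14 and the rest) in the 39 pools (columns, each exposed group left of its controls), as log2(CPM + 0.1) minus the mean of that member, with colours limited to 3 in each direction. Batch I14 is blue in nearly every row except the last ones, and whole columns within a group are red or pale together.

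Genes that act with zinc finger repressors were read beside the family, since their products are known to join C2H2 proteins in silent chromatin. Of 11 listed genes 6 matched a symbol. The I14 controls averaged 32.9 CPM for ATRX, a chromatin remodeller of heterochromatin, against 112, 98.9 and 127 CPM in the controls of I13, I32 and I30. UHRF1, which reads hemimethylated DNA, averaged 112 CPM in I14 controls, against 268, 286 and 323 CPM in the same order. setdb1a, a histone H3 lysine 9 methyltransferase, averaged 8.94 CPM in I14 controls and 19.99, 19.95 and 23.5 CPM in the others. DNMT1, the maintenance DNA methyltransferase, did not have its lowest level there, with 120.1 CPM in I14 controls and 88.6, 126 and 148 CPM in the others. HDAC1 and CBX5, a deacetylase and a heterochromatin protein, differed less, with 1439.5 and 388 CPM in I14 controls against 1308 and 457 CPM in I13 controls. The share of reads outside annotated genes was also lower in the I14 controls, 5.59% to 6.36%, against 6.36% to 9.88% in all other controls. Whether these measures have a part in the low level of the family was not tested.

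Between control pools of 1 batch the members varied more than most genes. The median SD of log2 CPM over the members tested was 0.61 in I14 (92 members), 0.63 in I13 (186), 0.49 in I32 (173) and 0.58 in I30 (170), against 0.27, 0.30, 0.26 and 0.27 over all genes tested in those batches. The members above the median SD of all genes were 91.3%, 93.0%, 90.8% and 92.4% in the same order. Low counts vary more, so the same was read by level. Counting error alone would give the median member an SD of about 0.33, 0.18, 0.24 and 0.24 in I14, I13, I32 and I30. For the median of all genes tested it would give 0.12, 0.10, 0.10 and 0.12. How much of the gap between members and all genes comes from counts was not tested. As the family was selected on this spread, the values are a description. Genes were split into 4 equal bins by mean level. In the second lowest bin the median SD of members was 0.48, 0.63, 0.43 and 0.57, against 0.32, 0.32, 0.30 and 0.32 for all genes of that bin. The lowest bin held 67, 81, 104 and 89 members. There the median SD of members was 0.73, 0.77, 0.55 and 0.62, against 0.54, 0.52, 0.50 and 0.57 for all genes of that bin. Without control replicate 3 of I13, the median SD in that batch was 0.44 for members and 0.24 for all genes tested.

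**Figure D3:**
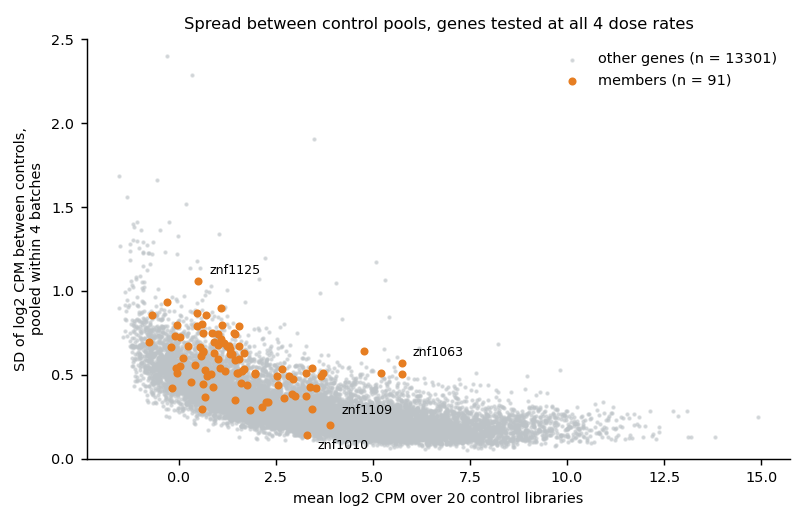
SD of log2 CPM between control pools, pooled within the 4 batches (y axis), against mean log2 CPM over the 20 control libraries (x axis), for the 91 members (orange) and the other genes (grey) of 13392 tested at all 4 dose rates. Members lie on the upper side of the cloud, with a median SD of 0.54 against 0.28 for all genes, except a few such as znf1109 and znf1010.

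In some pools most members lay on the same side of their group mean. In control replicate 2 of batch I13, 193 of 203 members (95.1%) were above the mean of their group, and in control replicate 3 of that batch 13 members (6.40%) were. The genes with at least 1 CPM gave 50.5% and 50.7% in these pools. TMM scaling keeps the share of all genes near the middle, so any set of genes that moves together stands out from it. In the I30 controls 187 members (92.1%) were above the group mean in replicate 1 and 30 members (14.8%) in replicate 4, where all genes gave 46.5% and 56.2%. Other pools were mixed, such as 0.05 mGy/h replicates 2 and 3, with 43.8% and 44.8% of members above the group mean, 5 mGy/h replicate 4 with 49.8% and control I30 replicate 3 with 52.7%. When the mean of the family was taken out of each control pool, the median SD of members in I13 was 0.33, against 0.63 with it. In I32 it was 0.37, against 0.49 with it, in I14 0.49 against 0.61 and in I30 0.40 against 0.58. Taking out a set's own mean lowers its spread by construction, and the step was not run for other genes. Nothing is concluded from this drop. Moving with the family was not particular to its members. Of 12666 other genes with at least 1 CPM, 2237 (17.7%) correlated above 0.5 with the sum of the members. Of 118 members, 90 (76.3%) did so with the sum of the other members. The highest value was 0.959 in other genes (GNL3) and 0.951 in members (znf1064).

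Other measures were read in the I13 and I30 controls with the highest and lowest family sums. The I13 control with the highest family sum (replicate 2, 1246 CPM) had 9.88% of its uniquely mapped reads outside genes and a mean log2 CPM of the 6 cofactor genes of 7.68, whereas the lowest (replicate 3, 509 CPM) had 6.99% and 7.22. In the I30 controls, replicate 1 (1119 CPM) had 8.55% of reads outside genes, a cofactor mean of 7.70 and a mean log2 CPM of 12 maternal oocyte transcripts of 4.24. Replicate 4 of that group (495 CPM) had 7.86%, 7.47 and 4.86. It was also the shallowest library, with 9845688 reads. The lowest share outside genes in these controls, 6.86%, was in replicate 2 (668 CPM), not in replicate 4. The part of depth, of maternal transcripts and of reads outside genes in the spread of the family was not tested.

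Among the 91 members tested at all 4 dose rates, the largest pooled control SD belonged to znf1125 (1.06), znf1003 (0.93), znf1167 (0.90) and znf1110 (0.87). znf1125 ranged from 0.632 to 4.33 CPM in the I30 controls and from 1.61 to 5.79 CPM in the I13 controls. znf1167 ranged from 1.08 to 7.30 CPM in the I30 controls. The smallest SD belonged to znf1010 (0.14) and znf1109 (0.20). znf1010 stayed between 8.13 and 10.3 CPM in the I30 controls, the same pools over which znf1125 had the range given above.

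At 0.005 mGy/h no differentially expressed gene (DEG) was found (1.5-fold or more in either direction with an adjusted p-value below 0.01, edgeR), among the 92 members that passed the filter as among all 13935 genes (0%). At an unadjusted p-value below 0.05 there were 2 higher and 3 lower of the 92 members, against 10.5% of all genes in both directions together, and DESeq2 called 0 members and 38 of all genes. The median log2 fold change of the members was -0.04, against -0.01 for all genes, and 43 were positive. Its sign turned to 0.13 without control replicate 1 and to 0.07 without exposed replicate 3. Exposed and control pools did not overlap in 1 member that was higher and 2 that were lower, against 5.65% and 5.04% of all genes. Over all 203 members the mean CPM was higher in 96, lower in 103 and equal in 4.

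The 2 members with the smallest p-value at 0.005 mGy/h were low in reads. znf982 had 0.427, 0.294 and 0.137 CPM at 0.005 mGy/h, against 0.999, 1.26, 0.627 and 0.452 CPM in controls, so that the groups did not overlap. Its log2 fold change was -1.55 (SE 0.52, adjusted p-value 0.34). znf1174 had 1.63, 1.47 and 0.547 CPM, against 0.478, 0.448, 0.689 and 0.251 CPM in controls. Its log2 fold change was 1.37 (SE 0.47, adjusted p-value 0.34).

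At 0.05 mGy/h no DEG was found either, among 186 members as among all 15814 genes (0%). At an unadjusted p-value below 0.05 there were 0 members by edgeR, against only 1.37% of all genes, and 0 members by DESeq2. The median log2 fold change of the members was 0.16, against 0.00 for all genes, and 151 of the 186 were positive, against 50.4% of all genes. The sign turned with single pools. The median was -0.067 without exposed replicate 1, the pool with the highest family sum, and -0.037 without control replicate 3, the pool with the lowest. With the libraries that the study kept after clustering, which leave out control replicates 3 and 4, it was -0.20. Without exposed replicate 3, the library with many reads of several places, it was 0.18. The groups did not overlap in 1 higher and 0 lower members, against 0.658% and 0.632% of all genes.

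The smallest p-values at 0.05 mGy/h belonged to znf1186 and znf1095. znf1186 had 0.667, 0.400, 0.138 and 0.291 CPM at 0.05 mGy/h, against 0.892, 0.887, 0.355 and 0.730 CPM in controls (log2 fold change -0.85, SE 0.44, adjusted p-value 0.9997). znf1095 had 1.33, 0.821, 1.1 and 0.904 CPM, against 0.669, 1.09, 0.387 and 0.380 CPM in controls (log2 fold change 0.70, SE 0.37, adjusted p-value 0.9997). In both genes exposed and control pools overlapped.

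At 0.5 mGy/h the family was higher in exposed pools. Of the 173 members that passed the filter 171 had a positive log2 fold change, against 48.4% of all genes tested, with a median of 0.73 (quartiles 0.49 and 0.96), against -0.01 for all genes. Over all 203 members with no filter, the mean CPM was higher in 198, lower in 4 and equal in 1. In 23 of 203 members all 6 exposed pools lay above all 6 controls, and in 0 below. Of these, 22 passed the filter, where 2.76% of all genes tested lay above and 1.29% below. With the threshold of the study 3 members were called, all higher (0.416% of all genes), and at an adjusted p-value below 0.05 with no minimum fold change 66 were, all higher (5.79% of all genes were higher at that level and 1.72% lower). The values of this dose rate are a description of a family selected on them.

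The number of members called at 0.5 mGy/h moved with single libraries, as did that of all genes (62 with all libraries). It was 0 without exposed replicate 2, 4, 5 or 6 and without control replicate 1, 2 or 3, and 34 without exposed replicate 3, where 340 of 14946 genes were called. The median log2 fold change was 0.63 to 0.81 over the 12 fits that left out 1 library. The libraries that the study kept gave 36 members, all higher, among 356 of 15144 genes called, and a median of 0.85. Those libraries leave out exposed replicates 1 and 3, which had the lowest family sums of their group, 864 and 833 CPM.

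The 3 members called at 0.5 mGy/h had groups that did not overlap. znf991 had a lowest value of 6.29, and a highest of 10.9 CPM at 0.5 mGy/h, against 2.44 and 4.67 CPM in controls, with means of 8.15 ± 2.03 and 3.64 ± 0.97 CPM (SD, n = 6 each) and a log2 fold change of 1.18 (SE 0.19). znf1021 averaged 6.08 ± 1.89 CPM at 0.5 mGy/h and 2.87 ± 0.47 CPM in controls, a log2 fold change of 1.09 (SE 0.20). znf1053 averaged 25.4 ± 7.28 CPM at 0.5 mGy/h and 12.5 ± 2.79 CPM in controls, a log2 fold change of 1.03 (SE 0.17). All 3 code for proteins that are known only by their number, and no role is given to them here.

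znf1090 (ENSDARG00000095521) had 1.32, 2.20, 1.68, 3.45, 2.27 and 3.48 CPM in the 6 pools at 0.5 mGy/h, against 0.567, 0.570, 0.486, 1.09, 1.28 and 1.30 CPM in controls. The lowest exposed pool was just above the highest control. Its log2 fold change was 1.44 (SE 0.30), and 1.29 to 1.58 with 1 library left out. At 5 mGy/h it had 1.01 to 1.47 CPM, against 0.722 to 2.56 CPM in controls (log2 fold change -0.60, SE 0.24, adjusted p-value 0.11). At 0.05 mGy/h it averaged 1.52 ± 0.46 CPM, against 1.57 ± 0.78 CPM in controls (SD, n = 4 each). In batch I14 no library was above 0.815 CPM, and 1 exposed library had no read. At its depth this allows up to 0.0959 counts-per-million before TMM scaling (3 counts, counting error only).

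Of the 5 most abundant members, znf1007 did not overlap at 0.5 mGy/h, with 40.5 to 72.5 CPM in exposed pools and 20.2 to 40.3 CPM in controls. znf1063 had 101 to 119 CPM, against 36.9 to 104 CPM in controls, where the exposed pools were close together and the controls were not. znf1035 averaged 96.6 ± 15.3 CPM, against 66.7 ± 14.1 CPM, and znf1065 averaged 69.9 ± 13.5 CPM, against 42.7 ± 15.4 CPM (SD, n = 6 each). Their log2 fold changes were 0.85 (SE 0.18) for znf1007, 0.72 (SE 0.20) for znf1065, 0.62 (SE 0.19) for znf1063 and 0.54 (SE 0.13) for znf1035. The members with a negative value were znf1008 (-0.45) and znf1104 (-0.18), named after their values were seen. znf1008 averaged 1.45 ± 0.24 CPM at 0.5 mGy/h and 1.98 ± 0.68 CPM in controls.

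**Figure D4:**
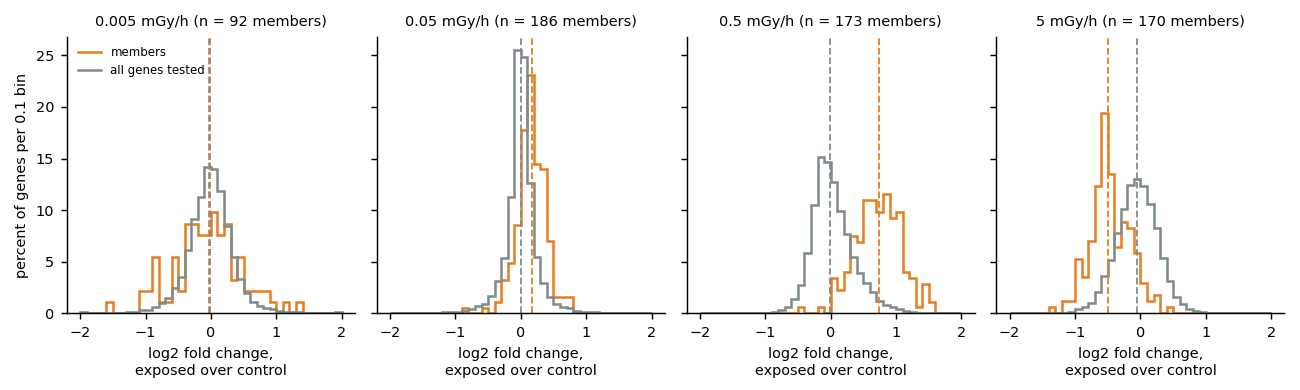
Distribution of log2 fold changes, exposed over control, for the members tested (orange) and all genes tested (grey) at each dose rate, as percent of genes per bin of 0.1, with dashed lines at the medians. The members centre on -0.04, 0.16, 0.73 and -0.50 in the order of dose rates, while the medians of all genes stay between -0.05 and 0.00.

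At 5 mGy/h most members were lower in exposed pools, with groups that overlapped. Of 170 members tested 159 had a negative log2 fold change and 11 a positive one, against 43.3% positive among all genes, with a median of -0.50 (quartiles -0.63 and -0.25), against -0.05 for all genes. Over all 203 members the mean CPM was higher in 22, lower in 180 and equal in 1. In some pools most members lay on the same side of their group mean. Counts of members are thus not independent, at this or any other dose rate. The mean log2 CPM of the family was 0.19 ± 0.26 in exposed pools, against 0.50 ± 0.49 in controls (SD, n = 6 each). No member had groups that did not overlap, higher or lower, although 2.76% of all genes lay above and 0.706% below. A single member was called, znf1127, which was lower (0.533% of all genes were called, in both directions together). At an adjusted p-value below 0.05 with no minimum fold change 11 members were lower and 0 higher, against 4.53% and 4.57% of all genes. At an unadjusted p-value below 0.05, 59 members were lower and 0 higher, against 27.8% of all genes in both directions together.

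znf1127 had 0.841, 1.19, 0.624, 0.618, 0.847 and 0.780 CPM at 5 mGy/h, against 1.64, 2.03, 2.1, 1.81, 2.13 and 1.17 CPM in controls. The highest exposed pool and the lowest control overlapped narrowly. Its log2 fold change was -1.18 (SE 0.22, adjusted p-value 0.0087, edgeR) and it was lost as a call, with adjusted p-values of 0.0103 to 0.0305, without any of exposed replicates 1, 3, 4, 5 or 6 or of control replicates 1, 3, 4, 5 or 6. DESeq2 gave it no adjusted p-value. The number of members called was 2 of 173 without control replicate 2, where 250 of 15271 genes were called. It was 3 of 174, with znf1127 not among them, without control replicate 4, where 48 of 15282 genes were called. With the libraries that the study kept 5 of 158 members were called, all lower, among 1158 of 14529 genes called.

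The abundant members differed in how far they were lower at 5 mGy/h. znf1063 averaged 50.8 ± 11.5 CPM, against 69.4 ± 23.6 CPM in controls, with a log2 fold change of -0.51 (SE 0.21, adjusted p-value 0.12). znf1065 averaged 43.9 ± 5.07 CPM, against 58.6 ± 14.8 CPM, with -0.47 (SE 0.15, adjusted p-value 0.055). znf1035 averaged 75.6 ± 17.6 CPM, against 78.8 ± 24.1 CPM, with -0.12 (SE 0.20, adjusted p-value 0.73). None of these passed the test (SD, n = 6 each). In this batch the exposed pools varied less than the controls, with family sums of 649 ± 94.8 CPM, against 809.7 ± 221 CPM. The members were covered by 13056 to 31436 reads in exposed libraries and 5482 to 34036 reads in controls. Reads outside genes were 6.10% to 7.77% in exposed pools and 6.86% to 8.97% in controls, with means of 7.07% and 8.15%. Single pools did not always follow, as exposed replicate 1 had 6.10% with a family sum of 695 CPM. In I14 the share was 5.14% to 5.31% at 0.005 mGy/h and 5.59% to 6.36% in controls, while the family sums overlapped. The part of this share was not tested.

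The changes in the exposed pools of I32 and I30 went in opposite directions in most members. Of 168 members tested in both batches, 156 (92.9%) had a positive change at 0.5 mGy/h with a negative one at 5 mGy/h, against 33.0% of all genes. Of 182 members in a joint fit of the 24 libraries, 36 were past an adjusted p-value of 0.01, all with the higher value at 0.5 mGy/h, where 3.58% of all genes were past it in that direction and 1.31% in the other. The median difference was 1.17 on the log2 scale, against 0.00 for all genes. This comparison contains the 0.5 mGy/h contrast on which the family was selected and also compares batches, so nothing is read from its counts. The count was 7 to 72 when 1 library was left out, and the share of all genes also moved, from 0.95% to 10.8%. Without control replicate 5 of I30 it was 7 (0.95% of all genes), and without control replicate 1 of I30 it was 9 (1.27%). Without exposed replicate 4 of I32 it was 10 (1.37%), and without exposed replicate 3 of I30 it was 11 (1.36%). Without control replicates 2 and 4 of I30 it was 64 (10.8%) and 72 (9.15%). It was 14 to 23 without exposed replicate 4 or control replicate 3 or 6 of I30, or exposed replicate 5 or control replicate 1 or 2 of I32. There 1.70% to 3.01% of all genes were past that level.

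Of the members named for that difference, znf986 averaged 4.64 ± 0.98 CPM at 0.5 mGy/h, against 2.16 ± 0.74 CPM in controls, and 2.21 ± 0.86 CPM at 5 mGy/h, against 4.08 ± 1.5 CPM in controls (SD, n = 6 each). The difference of its log2 changes was 2.03 (SE 0.36). For znf1127 it was 1.83 (SE 0.33), for znf991 1.78 (SE 0.33) and for znf1090 2.006 (SE 0.39). For the members with the smallest control spread the difference was -0.08 (SE 0.17) for znf1109 and 0.06 (SE 0.15) for znf1010.

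**Figure D5:**
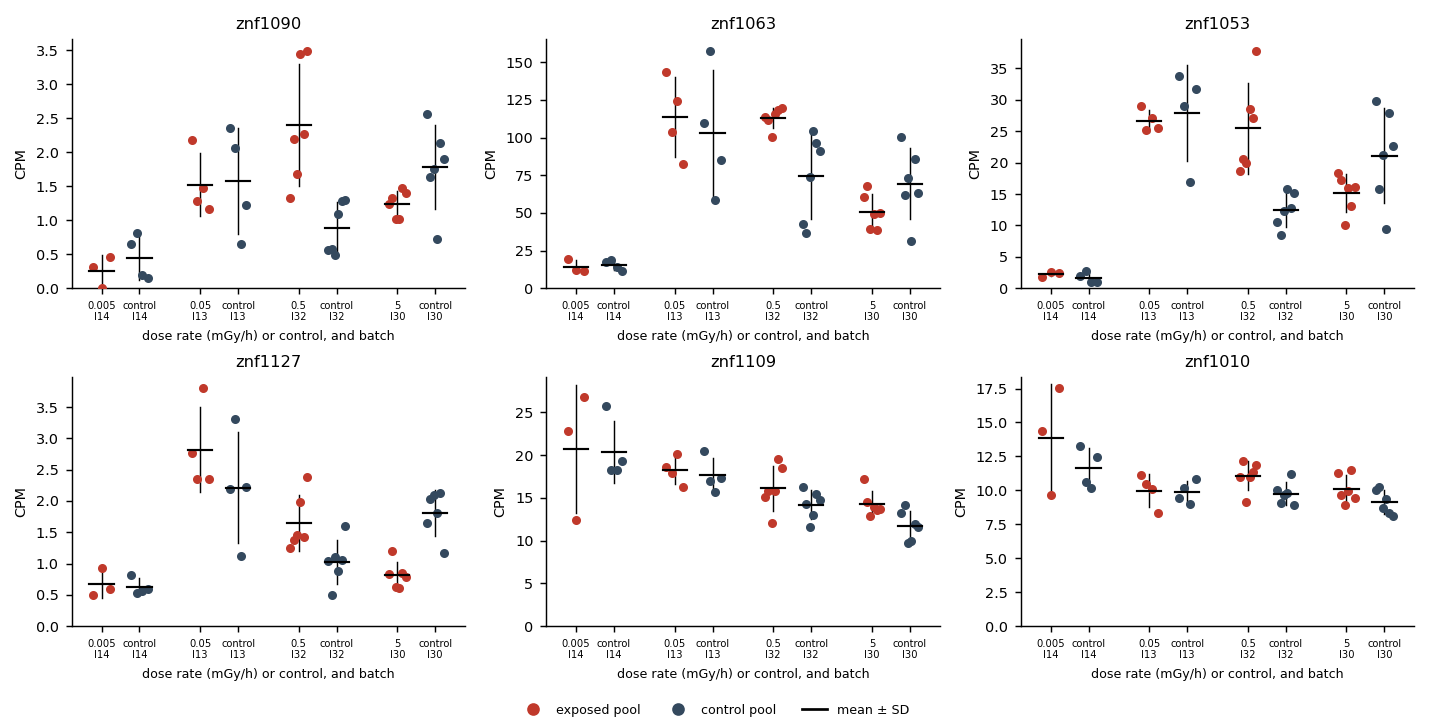
CPM of 6 members in each of the 39 pools, exposed pools in red and controls in dark blue, with mean and SD. znf1090, znf1063, znf1053 and znf1127 follow the family, low in batch I14 and higher at 0.5 mGy/h than in its controls, while znf1109 and znf1010 are not lower in batch I14, znf1109 having its highest control mean there.

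Other gene groups were read at the same dose rates. Of the 91 znf genes below 900, 73 were tested at 0.5 mGy/h, 0 passed the threshold and 7 were higher at an adjusted p-value below 0.05, with a median log2 fold change of 0.05. At 5 mGy/h 75 were tested, 0 passed, 1 was higher and 4 lower at the looser level, and the median was -0.03. The 6 cofactor genes had a median of 0.15 in I32 and -0.14 in I30, and 0 passed the threshold. setdb1a had 27.6 ± 5.02 CPM at 0.5 mGy/h, against 19.95 ± 3.37 CPM in controls (log2 fold change 0.47, SE 0.13, adjusted p-value 0.035). ATRX had 128 ± 14.95 CPM, against 98.9 ± 16.6 CPM (0.38, SE 0.11, adjusted p-value 0.037), and UHRF1 had 232 ± 41.1 CPM at 5 mGy/h, against 323 ± 60.8 CPM in controls (-0.53, SE 0.13, adjusted p-value 0.025). These 3 were inside the looser level only (SD, n = 6 each). DNMT1 went the other way in I32, with 103 ± 24.9 CPM at 0.5 mGy/h, against 126 ± 16.5 CPM in controls (-0.28, SE 0.12, adjusted p-value 0.17).

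Lists of developmental stage were given in the same way. Of 12 maternal oocyte transcripts, 0 were called at 0.5 mGy/h and 1 was lower at 5 mGy/h (medians -0.28 and 0.01), and at an adjusted p-value below 0.05 there were 2 lower at 0.5 mGy/h. Of 14 early zygotic genes tested, 0 were called at either dose rate, with medians of -0.05 and 0.00. Of 8 genes tested that rise through gastrulation, 0 were called at 0.5 mGy/h and 2 were higher at 5 mGy/h, with medians of 0.08 and 0.39. Of the 15 genes on that list 9 matched a symbol, and its mean log2 CPM was taken over these 9. At 5 mGy/h this mean was 4.61 to 5.11 in exposed pools, against 4.21 to 4.38 in controls. These groups did not overlap, while the family was lower in the same pools. In batch I14, where the family was lowest, that list had 5.11 to 5.26 at 0.005 mGy/h and 4.89 to 5.18 in controls. Whether developmental timing has a part in the levels of the family was not tested.

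The RefSeq gene table, which is on another assembly (GRCz12tu) and was used for names and neighbours only, held 54 of the 203 symbols (26.6%). Of these 54, 25 lay on a single chromosome and 18 on another. In 17 another member lay within 5 protein-coding genes and in 6 it was the next gene. As most members did not match, these counts are a floor.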

How the data were processed

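The authors extracted RNA from pools of entire embryos, made stranded poly(A) libraries, trimmed the reads, and aligned them to GRCz11 with STAR, which also counted reads per gene. The deposited files hold raw counts of uniquely mapped reads for each strand setting. The sense column was used here, and the rows that name no gene were left out (reads outside genes were 5.14% to 9.88% of uniquely mapped reads). A reference table paired 28988 of the 32057 gene IDs with a symbol. CPM values used TMM factors over all 39 libraries. Each dose rate was tested against its batch controls with edgeR 4.0.16 (quasi-likelihood, TMM, filterByExpr, Benjamini-Hochberg) in R 4.3.3. The study's threshold of a 1.5-fold change and an adjusted p-value below 0.01 was used. Control spread was the SD of log2 CPM with a prior count of 0.5. All 39 libraries were used. The 31 of these that the study kept, as read from its clustering figure, were an alternative. The study made its selection from a larger set of samples, not all of which were used here. Further alternatives were DESeq2 1.42.0, other normalization, filters, strand, thresholds, thinning and leaving out libraries. Members, lists and tests were chosen with earlier results of these data known. Named members were znf1090, the 5 most abundant, and those with the largest changes, control spread or smallest p-values by fixed counts per comparison. On simulated counts, changes of 2-fold were recovered in 84% of changed genes at 0.5 mGy/h (14907 genes) and 79% at 5 mGy/h (15045 genes), and in 49% and 48% at 0.005 and 0.05 mGy/h (13937 and 15762 genes). These rates are for genes drawn from all genes above a minimum mean count, not for the members. Members varied more than most genes, so recovery among them may be lower. All 81 pairs of libraries of 1 group differed beyond counting noise (chi-square per degree of freedom of at least 4.12). Same-numbered exposed and control pools correlated above 0.1 in 10 of 19 pairs. In 8 of 19 the same-numbered pool was the best partner. These values do not settle whether the numbers are pairs, and the labels do not say. The main fits used no pairs, and a replicate block was an alternative.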

Additional observations from a re-analysis of the deposited data

Results flagged for a closer look

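In groups of 4 to 6 libraries, the summed CPM and the named members were screened for a library far from the rest of its group. Of 161 groups 8 held such a library, which is about the share that chance gives (1 in 20), so nothing is read from them. The groups reuse the same pools and are not independent. znf991 had 10.1 CPM in replicate 1 at 0.05 mGy/h, against 4.63 CPM in the next pool, and that pool also had the highest family sum. znf1144 had 4.03 CPM in control I13 replicate 3, against 8.97 CPM in the next, and that pool had the lowest family sum of its group. znf1062 had 18.5 CPM in control I30 replicate 1, against 12.5 CPM. znf982 had 7.37 CPM in replicate 4 at 0.5 mGy/h, against 4.58 CPM, and 1.46 CPM in control I32 replicate 2, against 2.95 CPM. znf1109 had 17.2 CPM in replicate 1 at 5 mGy/h, against 14.5 CPM, and 25.8 CPM in control I14 replicate 1, against 19.3 CPM. znf1003 had 1.16 CPM in control I32 replicate 1, against 0.973 CPM.

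The change at 0.5 mGy/h and the change at 5 mGy/h differed in 36 members past an adjusted p-value of 0.01 (edgeR), against 4.89% of all genes. With 1 library left out there were 7 to 72 members, against 0.95% to 10.8% of all genes. The family was selected on the 0.5 mGy/h contrast, so these counts support nothing. The difference on the log2 scale was 2.03 for znf986, 2.006 for znf1090, 1.83 for znf1127 and 1.78 for znf991. Dose rate and irradiation batch cannot be told apart in it.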

How the results depend on the processing

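At 0.005 and 0.05 mGy/h 0 members were called under every alternative run, but few genes of any kind were called there at the study's threshold. At 0.05 mGy/h at most 2 were, over all genes. At 0.005 mGy/h the highest numbers were 120 of 13806 genes with the replicate block, 38 with DESeq2 and 26 without control replicate 1. At 0.5 mGy/h the 3 members called became 66 at an adjusted p-value below 0.05, 38 with DESeq2, 18 with no filter on low counts, 0 in 1 fit of all 39 libraries, 36 with the libraries the study kept and 40 with the replicate block, and ranged from 0 to 34 when 1 library was left out. Calls over all genes moved too, being 62 at first, 373 with DESeq2, 229 with no filter, 2 in 1 fit, 356 with the libraries the study kept and 390 with the block. They were 2 to 340 with 1 library left out. At 5 mGy/h the 1 member became 11 at the looser level, 3 with DESeq2 (znf1127 not among them), 5 with the libraries the study kept and 0 with the replicate block (znf1127 had an adjusted p-value of 0.0314), and ranged from 0 to 3. Over all genes 80 were called at first, 265 with DESeq2, 1158 with the libraries the study kept and 7 with the block. With 1 library left out 12 to 250 were. The median log2 fold change kept its sign under every alternative at 0.5 mGy/h (0.63 to 0.85) and at 5 mGy/h (-0.57 to -0.34). As the family was selected on the 0.5 mGy/h contrast, the sign kept there supports nothing. At 5 mGy/h the members share the same pools and are not independent, so the sign kept is not a set of separate results. At 0.005 mGy/h it was 0.13 with the replicate block and -0.17 to 0.13 with 1 library left out, with 0.07 without exposed replicate 3. At 0.05 mGy/h it was -0.20 with the libraries the study kept and -0.067 (without exposed replicate 1) to 0.40 with 1 library left out, with -0.037 without control replicate 3. The cause of these shifts was not tested. The control spread in I32 was 0.58 with counts thinned to the shallowest library, and with 1 control left out the spread was 0.50 to 0.69 in I14, 0.44 to 0.74 in I13, 0.40 to 0.51 in I32 and 0.46 to 0.62 in I30. Members that differed between control batches were 120 to 152 with 1 library left out, where 60.0% to 66.1% of all genes differed. The lowest count, without control replicate 4 of I14, was 63.5% of the members tested, against 60.0% of all genes. The filter could pass a member through batches where it was high, so these counts support nothing. Those whose change differed between 0.5 and 5 mGy/h were 53 with DESeq2 (14.6% of all genes) and 37 with the replicate block (4.93%). With 1 library left out they were 7 to 72 (0.95% to 10.8% of all genes). The main fits did not take the replicate numbers as pairs. Same-numbered pools correlated from -0.35 to 0.35, which does not settle whether they were pairs. Members under about 1 CPM rest on few reads, so their separate changes are imprecise.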
